A study of Homo sapiens with 6 samples.

Results

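The stratified squamous keratins described here are 9 genes, KRT5, KRT14, KRT15, KRT17, KRT6A, KRT6B, KRT16, KRT13 and KRT4, taken by gene symbol from a table of 58825 genes. They were measured by RNA sequencing in FaDu, an established squamous carcinoma line of hypopharyngeal origin, in 3 libraries without a hairpin and 3 libraries with a short hairpin directed at NSUN2. This enzyme methylates cytosines in transfer RNAs and in some messenger RNAs, and the series asks which transcripts change when it is knocked down. The group without a hairpin is called FaDu below and the group with it shNSUN2. Both groups are the same cell line, and a non-targeting hairpin is not among the samples used here, so loss of NSUN2 cannot be told apart from the presence of a hairpin or from its delivery. The sources used here give neither the vector nor the selection of cells. The labels do not say whether replicates came from separate cultures, so p-values measure the spread between these samples alone, and that spread may be technical.

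Keratins are the intermediate filament proteins of epithelia, and each filament is built from pairs of 1 type I and 1 type II chain. Among the genes described here KRT14, KRT15, KRT16, KRT17 and KRT13 are type I genes of chromosome 17, and KRT5, KRT6A, KRT6B and KRT4 are type II genes of chromosome 12. In stratified epithelium KRT5 and KRT14 fill the dividing basal layer, where KRT15 is also found. KRT6A, KRT6B, KRT16 and KRT17 are induced in wounds and in activated keratinocytes, and KRT4 and KRT13 pair in the suprabasal layers of moist mucosa such as that of the mouth, pharynx and oesophagus.

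The promoters of KRT5 and KRT4 are shown because the sequences at hand held no promoter of the other keratins described here. These type II genes share a chromosome and a strand and moved in opposite directions. The sequences are those of RefSeq on GRCh38.p14, where 2 of the 9 genes matched by symbol. Each runs 5′ to 3′ on the minus strand over the 250 bases before the start site, at chr12:52520395-52520644 for KRT5 and at chr12:52814117-52814366 for KRT4. Capitals mark a match to the AP-2 letters GCCNNNGGC.
KRT5: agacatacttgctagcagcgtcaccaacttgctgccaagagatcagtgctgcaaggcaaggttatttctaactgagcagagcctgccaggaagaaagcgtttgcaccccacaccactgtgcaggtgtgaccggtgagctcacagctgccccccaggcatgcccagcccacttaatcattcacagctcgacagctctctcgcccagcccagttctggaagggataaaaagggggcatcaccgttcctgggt
KRT4: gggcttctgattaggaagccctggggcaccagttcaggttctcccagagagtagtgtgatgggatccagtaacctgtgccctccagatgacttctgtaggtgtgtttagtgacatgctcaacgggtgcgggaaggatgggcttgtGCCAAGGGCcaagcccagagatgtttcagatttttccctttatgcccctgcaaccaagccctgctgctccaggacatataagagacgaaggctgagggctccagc
The GC content was 56% in the KRT5 sequence and 54.8% in the KRT4 sequence. Both strands were searched for 5 motifs. The letters of the TATA box were TATAAA. For AP-1, a dimer of Fos and Jun proteins, they were TGANTCA. The Sp1 box was searched as GGGCGG. The AP-2 letters are those given above, and TTCNNNGAA stood for STAT factors. KRT4 held 1 AP-2 match, starting 105 bases before the start site, and KRT5 held none of the 5, so no matches overlapped. Among 35116 RefSeq promoters of the same length, 19.8% held the AP-2 letters, 42.6% the Sp1 letters, 10.7% the TATA letters and 6.57% each the AP-1 and the STAT letters. A match describes the letters only.

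Libraries held 53612358 to 72788971 estimated counts. NSUN2, the targeted gene, stood at 169, 173 and 156 CPM (estimated counts scaled to a common library total after TMM adjustment) in FaDu and at 50.4, 34.7 and 39.6 in shNSUN2. It fell to 25.1% of its FaDu level (adjusted p = 0.000526, edgeR quasi-likelihood test with Benjamini-Hochberg adjustment), and an exact permutation test of the CPM, two-sided, gave p = 0.1, the lowest value possible with 3 libraries a group. At an adjusted p under 0.05, 8.54% of the 19081 tested genes were higher in shNSUN2 (1629) and 9.97% lower (1903), together 18.5%. With 1 library left out at a time, the calls ran from 478 to 2090 higher and from 861 to 2181 lower. They fell to 626 higher and 970 lower without FaDu replicate 1, to 478 and 878 without FaDu replicate 2, to 493 and 861 without FaDu replicate 3 and to 886 and 1183 without shNSUN2 replicate 1. All 10 epithelial genes listed as markers of the labelled squamous cells were detected in both groups. Some of them, such as EPCAM and CDH1, are not limited to squamous epithelium. Their summed level was 2907 to 3116 CPM in FaDu and 2549 to 2853 CPM in shNSUN2, with all 10 counted. Of the 10, TP63, DSG3, DSC3, PKP1 and SFN were called lower, EPCAM was called higher and 4 were not called, with a median log2 fold change of -0.41. Their part in the keratin results was not tested.

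Of the 9 keratins, 8 passed the filter on low counts and 7 were called, 3 higher and 4 lower in shNSUN2, against 18.5% of all genes tested. KRT13, KRT15 and KRT4 rose, KRT14, KRT5, KRT17 and KRT6A fell, KRT16 was not called, and KRT6B was too low to be tested. The CPM of the 3 FaDu and the 3 shNSUN2 libraries did not overlap for the 7 called genes, while 42.3% of all genes tested had groups apart in this way. A change of at least 2-fold was called for 5 of the 8, against 8.17% of all genes tested, and of at least 4-fold for 4 of the 8, against 2.58%. The tested genes therefore changed in both directions, also within a class, since 2 of the 3 basal keratins fell and the third rose. In bulk samples, fewer cells of a type and less RNA per cell cannot be told apart. The 7 calls and their directions, and the lack of a call for KRT16, held in each of 14 alternative fits.

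**Figure D1:**
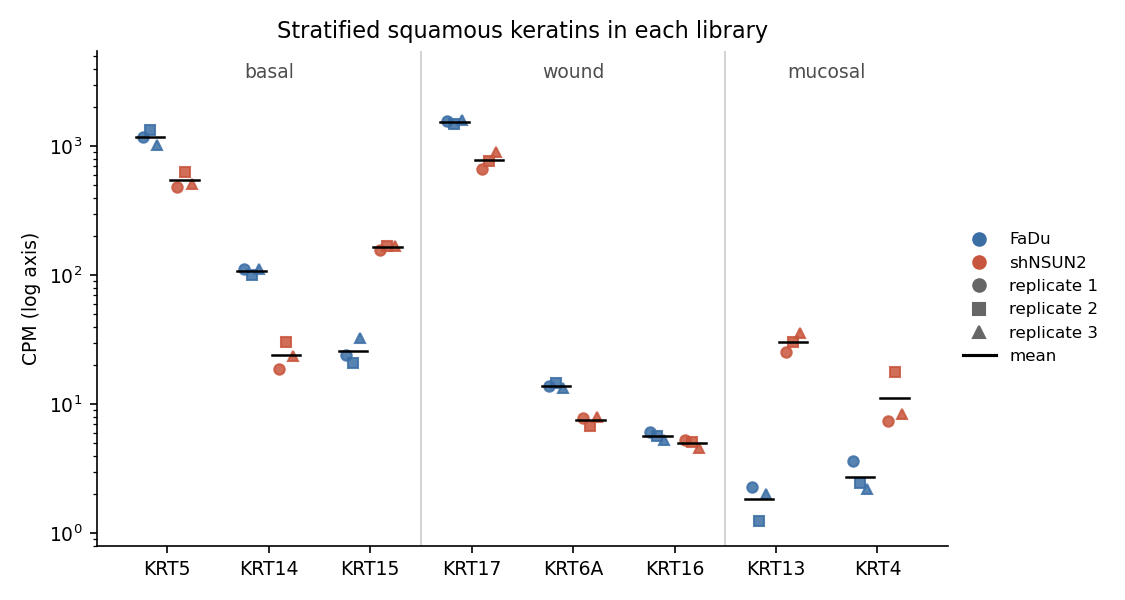
CPM of 8 of the keratins by library on a log axis, KRT6B left out, with 3 FaDu and 3 shNSUN2 libraries (points) and the group means (bars). KRT13, KRT15 and KRT4 stand higher in each shNSUN2 library than in any FaDu library, KRT14, KRT5, KRT17 and KRT6A stand lower, and the groups of KRT16 overlap.

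Among the basal keratins, KRT5 (chromosome 12, 52514575 to 52520687, GRCh38, GENCODE 29) is the type II chain of the basal layer. KRT5 stood at 1187, 1334 and 1020 CPM in FaDu replicates 1 to 3 and at 487, 636 and 505 CPM in shNSUN2 replicates 1 to 3. Each shNSUN2 library was well below the lowest FaDu library. The group means were 1180 ± 157 and 543 ± 81.1 CPM (SD, n = 3 libraries each). KRT5 fell by 1.12 on the log2 scale (SE 0.15, adjusted p = 0.00306, edgeR), to 46% of its FaDu level.

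KRT14 (chromosome 17, 41582279 to 41586921), the type I partner of KRT5, had the largest fall of the 9 genes. Its level was 112, 101 and 113 CPM in FaDu and 18.8, 30.2 and 23.8 CPM in shNSUN2. The FaDu libraries lay close together, and the highest shNSUN2 library was far below them. KRT14 fell by 2.16 on the log2 scale (SE 0.19, adjusted p = 0.000612, edgeR), to 22.3% of the FaDu level.

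KRT15 (chromosome 17, 41513743 to 41522529), a type I chain of basal cells without a fixed partner of its own, went the other way. It stood at 24.3, 21 and 32.4 CPM in FaDu and at 157, 169 and 169 CPM in shNSUN2. The 3 shNSUN2 libraries were nearly level with each other, and all lay above every FaDu library. The log2 fold change of KRT15 was 2.67 (SE 0.18, adjusted p = 0.000327, edgeR). KRT15 was thus below KRT14 in CPM in each FaDu library and above it in each shNSUN2 library, which compares read numbers and not levels per length.

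The wound keratins split into a pair that fell and one that was not called. KRT17 (chromosome 17, 41619441 to 41624842), a type I chain of activated and of many cancer cells, stood at 1572, 1495 and 1585 CPM in FaDu and at 663, 775 and 907 CPM in shNSUN2. The FaDu libraries were nearly level and the shNSUN2 libraries were spread more widely, with no overlap. KRT17 fell by 0.99 on the log2 scale (SE 0.13, adjusted p = 0.00305, edgeR).

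KRT6A (chromosome 12, 52487174 to 52493257), a type II wound keratin, was far less abundant, at 14, 14.5 and 13.3 CPM in FaDu and 7.85, 6.82 and 7.89 CPM in shNSUN2. Both groups were tight and apart from each other. KRT6A fell by 0.89 on the log2 scale (SE 0.14, adjusted p = 0.00651, edgeR). Of all 100-base windows of its transcript, 18.2% occur identically in another gene, 17.6% in KRT6C, and of its 50-base windows 39.1%, 35.2% in KRT6C, so its count depends in part on how reads were shared out. KRT6C itself was listed at 1.38 CPM in FaDu replicate 3, at 0.785 CPM in shNSUN2 replicate 3 and at 0 in the other 4 libraries.

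KRT16 (chromosome 17, 41609778 to 41615899), the usual type I partner of the KRT6 chains, had 6.12, 5.65 and 5.25 CPM in FaDu and 5.31, 5.05 and 4.55 CPM in shNSUN2. The lowest FaDu library lay just under the highest shNSUN2 library. Its log2 fold change of -0.19 (SE 0.17) was not called by edgeR (adjusted p = 0.469), and over the 14 alternative fits it ran from -0.27 to -0.13. KRT6B (chromosome 12, 52446651 to 52452126), the close copy of KRT6A, was listed at 4 estimated counts in FaDu replicate 2 and at 0 in the other 5 libraries, so no difference can be given for it. In these cells the type II wound chains were therefore represented almost wholly by reads assigned to KRT6A.

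The mucosal keratins both rose from low levels. KRT13 (chromosome 17, 41500981 to 41505705), the type I chain of mucosal suprabasal cells, stood at 2.27, 1.25 and 2.02 CPM in FaDu and at 25.4, 30.4 and 35.7 CPM in shNSUN2. These values rest on 139, 68 and 151 estimated counts in FaDu and on 1717, 1805 and 2412 in shNSUN2. Every shNSUN2 library was far above the highest FaDu library. The log2 fold change of KRT13 was 4.04 (SE 0.26, adjusted p = 0.00032, edgeR), the largest change in either direction among the 8 tested keratins.

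KRT4 (chromosome 12, 52806549 to 52814551), the type II partner of KRT13, stood at 3.6, 2.44 and 2.19 CPM in FaDu and at 7.43, 17.6 and 8.46 CPM in shNSUN2. Replicate 2 of shNSUN2 stood well above the other shNSUN2 libraries, and all 3 lay above every FaDu library. The log2 fold change of KRT4 was 2.03 (SE 0.37, adjusted p = 0.0101, edgeR). Without shNSUN2 replicate 2 it was 1.54 (adjusted p = 0.0132, edgeR). KRT13 rose in all 3 shNSUN2 libraries to a similar level, whereas the size of the KRT4 rise depended on 1 library.

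Summed markers of prostate secretory cells, plasma and B cells and endothelium were higher in each shNSUN2 library than in any FaDu library, as were the 3 keratins that rose, and sums of leukocyte and fibroblast markers overlapped between the groups. Of 10 markers of prostate secretory cells, 6 were detected in FaDu and 9 in shNSUN2, with summed levels of 30.5 to 33.2 CPM and 48.5 to 64.7 CPM, and KLK4, MSMB, TGM4 and NPY were listed at 0 in all FaDu libraries and NPY in all shNSUN2 libraries. Of 8 plasma and B cell markers, 5 and 6 were detected, at 0 to 0.267 CPM and 1.9 to 5.11 CPM, with MS4A1 at 0 in both groups. Of 8 smooth muscle markers, 5 and 7 were detected, at 11.1 to 12.5 CPM and 12.5 to 28.7 CPM, with MYOCD at 0 in both groups. Of 6 endothelial markers, 3 and 5 were detected, at 4.07 to 5.79 CPM and 31.8 to 54.8 CPM, with EMCN at 0 in both groups and CDH5 making up most of the sum in shNSUN2. Of 8 other leukocyte markers, 3 and 6 were detected, at 33.2 to 53.5 CPM and 39.4 to 48.4 CPM, with PTPRC and CD3D at 0 in both groups. Of 6 fibroblast markers, 4 and 6 were detected, at 8.85 to 9.45 CPM and 6.24 to 11.5 CPM, with COL1A2 and DCN at 0 in FaDu. Among the shNSUN2 libraries, the one with the highest prostate, plasma cell and smooth muscle sums (replicate 1) had the lowest KRT13, KRT15 and KRT4. Without that library the log2 fold change of KRT13 was 4.16, that of KRT15 2.71 and that of KRT4 2.25. The endothelial sum, at 31.8, 44.1 and 54.8 CPM, followed the same order of libraries as KRT13. Single markers within a sum differed in their order. In shNSUN2 replicates 1 to 3, MSMB stood at 3.92, 0.488 and 0.281 CPM and KLK3 at 14, 16.8 and 10.2 CPM. The part of these markers and sums in the keratin results was not tested.

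**Figure D2:**
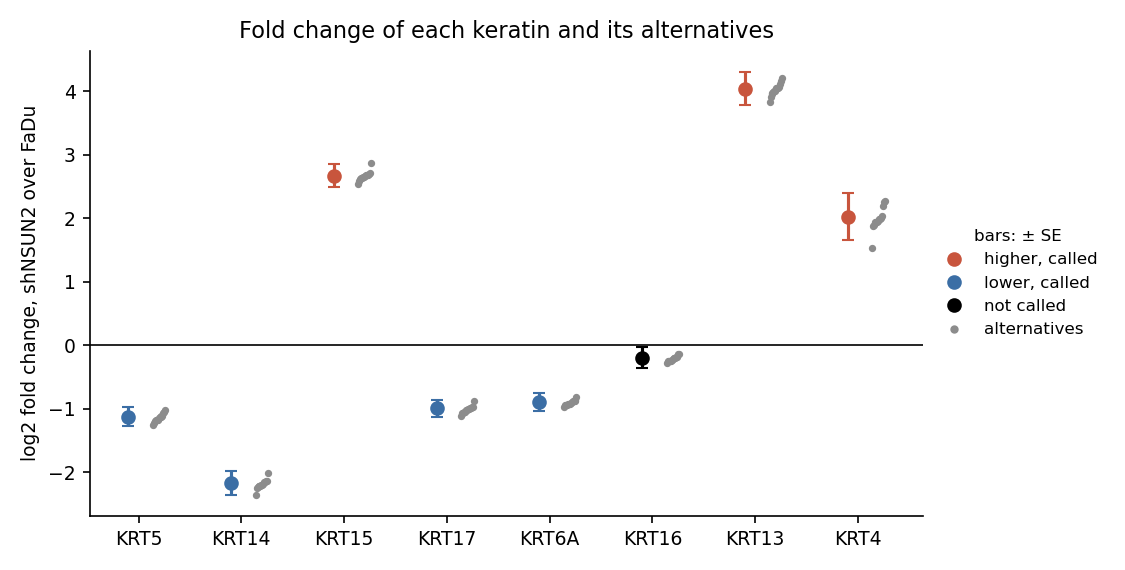
Log2 fold change of shNSUN2 over FaDu for the 8 tested keratins (points), with the SE of the edgeR fit (bars) and the values of 14 alternative fits (grey points). KRT13 stands at 4.04 and KRT14 at -2.16, the grey points of each gene stay on 1 side of 0, and KRT16 lies close to it.

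Together the 9 genes made up 2922, 2974 and 2772 CPM in FaDu and 1371, 1670 and 1661 CPM in shNSUN2. The summed level in shNSUN2 was 54.2% of that in FaDu. The type I genes were at 59.5% of their FaDu sum and the type II genes at 46.9%. KRT5 and KRT17 made up most of the sum in both groups. The rises of KRT15 (25.9 to 165 CPM) and KRT13 (1.85 to 30.5 CPM) enter the type I sum in shNSUN2. That of KRT4 (2.74 to 11.2 CPM) enters the type II sum. The percentages therefore mix falls with rises.

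Levels were compared between genes after division by the length of the union of each gene's exons, as a percentage of the length-scaled sum of the 9 genes. KRT17 led in both groups, with 59.7 ± 3.11% in FaDu and 58.2 ± 4.21% in shNSUN2 (SD, n = 3 libraries each). KRT5 followed with 33.1 ± 3.67% and 29.6 ± 3.67%. For each of these genes the libraries of the groups overlapped. KRT17 and KRT5 kept the top places in the order of the set while their levels fell. The sum of their percentages was lower in each shNSUN2 library than in any FaDu library, so the pair lost share to the other keratins of the set.

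Among the less abundant genes the order changed. KRT14 went from 5.73 ± 0.461% of the length-scaled sum in FaDu to 2.47 ± 0.394% in shNSUN2. KRT15 went from 0.443 ± 0.112% to 5.48 ± 0.441%, KRT13 from 0.0765 ± 0.0226% to 2.44 ± 0.195% and KRT4 from 0.0995 ± 0.0258% to 0.778 ± 0.345%. In FaDu the order was KRT17, KRT5, KRT14, KRT6A, KRT15, KRT16, KRT4 and KRT13, where the neighbours KRT6A (0.572 ± 0.0132%) and KRT15, and KRT4 and KRT13, had libraries that overlapped. In shNSUN2 the order was KRT17, KRT5, KRT15, KRT14, KRT13, KRT4, KRT6A and KRT16, where KRT14 and KRT13 overlapped, as did KRT4 with KRT6A (0.607 ± 0.106%) and KRT6A with KRT16 (0.475 ± 0.092%). With the coding length in place of the exons, an alternative chosen after seeing the data, KRT15 had 0.962% in FaDu and 11.2% in shNSUN2 and KRT14 had 3.88% and 1.57%. KRT15 then stood above KRT6A in FaDu (0.416%), and KRT13 (2.04%) above KRT14 in shNSUN2. The annotated exons of KRT15 span 7069 bases and its coding sequence 1368 bases. By the longest transcript, too, KRT13 (2.32%) stood above KRT14 (2.03%) in shNSUN2, with libraries that overlapped. KRT15 stood below KRT14 in FaDu and above it in shNSUN2 with either length.

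**Figure D3:**
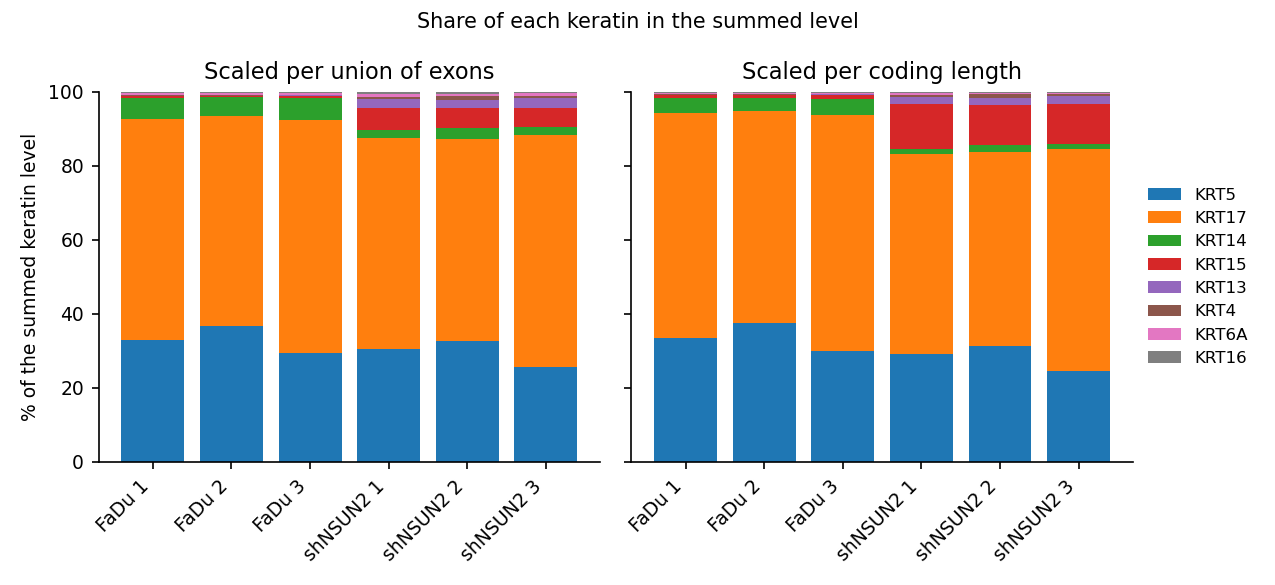
Percentage of 8 keratins (KRT6B, near 0, is left out) in the length-scaled sum of the 9 keratins in each of the 6 libraries (stacked bars), by exon length and by coding length. KRT17 and KRT5 fill most of every bar, and the KRT15 segment widens from 0.443% to 5.48% by exon length and from 0.962% to 11.2% by coding length.

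Keratins that pair or share a layer were compared as log2 ratios of CPM within each library, 6 ratios in all. A ratio within a library does not depend on scaling between libraries. KRT14 over KRT5, the basal pair, was -3.4, -3.73 and -3.18 in FaDu and -4.7, -4.4 and -4.41 in shNSUN2. The mean ratio was -3.44 ± 0.28 in FaDu and -4.50 ± 0.17 in shNSUN2, so the type I chain was lower relative to its partner in each shNSUN2 library. KRT13 over KRT4, the mucosal pair, was -0.66, -0.97 and -0.12 in FaDu and 1.77, 0.79 and 2.08 in shNSUN2, a difference of 2.13. KRT16 over KRT6A was -1.19, -1.36 and -1.34 in FaDu and -0.56, -0.43 and -0.8 in shNSUN2, a difference of 0.70. In these 3 pairs the groups did not overlap.

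KRT15 over KRT14, both basal type I chains, was -2.21, -2.26 and -1.8 in FaDu and 3.07, 2.49 and 2.83 in shNSUN2, a difference of 4.88 and the largest of the 6. Each of these 4 ratios had p = 0.1 in an exact permutation test, two-sided (0.15 adjusted over the 6 ratios), which is the lowest value possible with 3 libraries a group. KRT17 over KRT5, the most abundant chains, was 0.40 ± 0.24 in FaDu and 0.53 ± 0.29 in shNSUN2, with libraries that overlapped (exact permutation p = 0.6, adjusted 0.7). KRT17 over KRT6A was 6.80 ± 0.11 and 6.69 ± 0.25, also overlapping (exact permutation p = 0.7, adjusted 0.7). The falls of KRT17, KRT5 and KRT6A were therefore of similar size within the spread of the libraries, which does not show that they were equal.

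**Figure D4:**
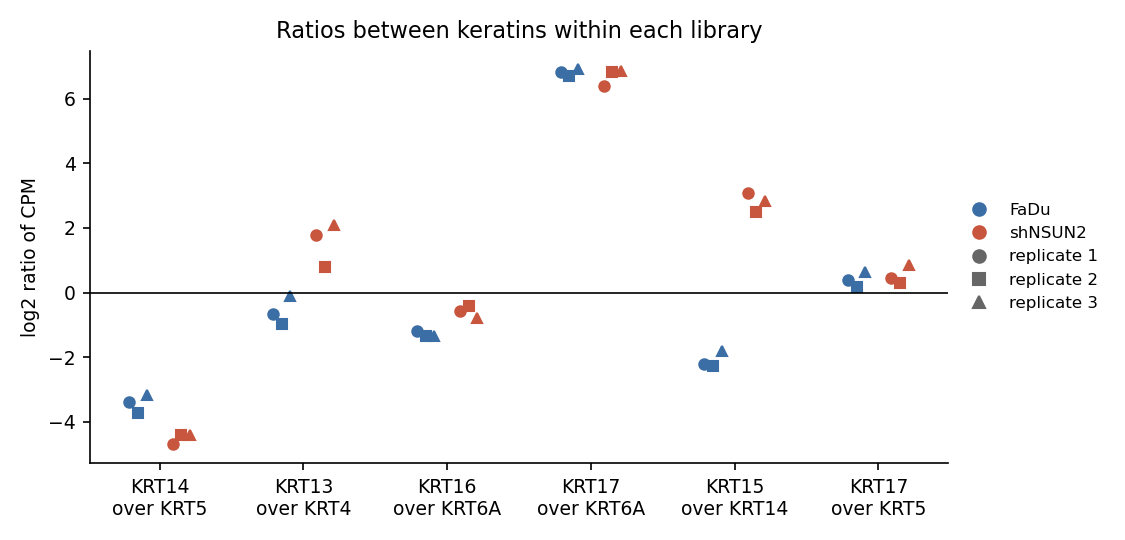
Log2 ratio of CPM between keratins within each library for 6 pairs, with 3 FaDu and 3 shNSUN2 libraries as points. The mean KRT15 over KRT14 ratio moves from -2.09 to 2.79, while KRT17 over KRT5 and KRT17 over KRT6A overlap between groups.

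The other keratins moved differently from the abundant squamous ones. Of 46 other keratin genes, 14 were tested, 7 were called higher and none lower in shNSUN2, against 8.54% and 9.97% of all genes tested. The median log2 fold change of the 14 was 0.74, beside -0.54 for the 8 squamous keratins and -0.01 for all genes tested. Of the 8 squamous keratins 3 were called higher and 4 lower, so their median describes no common direction. Without FaDu replicate 1, and likewise without FaDu replicate 2, 4 of the other keratins were called higher. Without shNSUN2 replicate 3, 1 of the other keratins was called lower. The 7 were the simple epithelial keratins KRT8, KRT18, KRT19 and KRT7, and KRT80, KRT86 and KRT32. KRT8, a type II chain of simple epithelia, had 315, 226 and 255 CPM in FaDu and 1314, 1193 and 1524 CPM in shNSUN2 (log2 fold change 2.34, SE 0.16). KRT18, its type I partner, went from 195 ± 22.3 to 643 ± 108 CPM, KRT7 from 24.3 ± 3.25 to 133 ± 35.4 CPM and KRT19 from 427 ± 10.5 to 645 ± 86.6 CPM. The genes KRT8 and KRT18 overlap in the annotation, and without strand their reads cannot be told apart there. KRT86, at a mean of 1.39 CPM in FaDu and 3.24 CPM in shNSUN2, overlaps KRT7 on the same strand. How far its call rests on reads of KRT7 was not tested. Of 8 markers of simple glandular epithelium, a list that includes several of these keratins, 8 were detected in FaDu and 7 in shNSUN2, with summed levels of 852 to 984 CPM and 2542 to 3203 CPM, and KRT20 was listed at 0 in shNSUN2. Their part in the squamous keratin result was not tested.

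The squamous set thereby lost its lead in the keratin pool. Of the length-scaled sum of all 55 keratin genes, the 9 squamous keratins held 72, 74.2 and 72.2% in FaDu and 34.8, 39.4 and 34% in shNSUN2. KRT8, KRT18, KRT19 and KRT7 together held 25.2 ± 0.941% and 59.1 ± 1.63% (SD, n = 3 libraries each). By coding length the squamous share was 72.7 ± 1.5% and 33.5 ± 3.04%. The ratio of type II to type I keratins within the 9 genes was 0.512 ± 0.0846 in FaDu and 0.452 ± 0.0812 in shNSUN2, with overlapping libraries. Over all 55 genes it was 0.42 ± 0.0526 and 0.52 ± 0.0394, without overlap, and 0.496 and 0.791 by coding length.

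Keratin pseudogenes were examined because they can share reads with the genes. Of 150, 19 were tested, 5 were called higher and 2 lower, against 8.54% higher and 9.97% lower of all genes tested. The share called lower was thus near that of all genes. Without FaDu replicate 2, FaDu replicate 3 or shNSUN2 replicate 2, 3 were called higher. The 5 higher ones were all copies of KRT8, which rose itself, among them KRT8P10 (0.969 ± 0.136 to 5.46 ± 3.12 CPM) and KRT8P45 (0.31 ± 0.0979 to 1.72 ± 0.379 CPM). The 2 lower ones were KRT16P2 (log2 fold change -2.14, SE 0.32) and KRT16P6 (-1.81, SE 0.23), copies of KRT16. KRT16P2 went from 3.34 ± 0.714 to 0.757 ± 0.234 CPM and KRT16P6 from 7.1 ± 1.38 to 2.03 ± 0.33 CPM, while KRT16 itself was not called. Of the 100-base windows of KRT16, 7.18% occur in another gene, 3.82% in KRT14. The share was 5.95% for KRT14, 1.44% for KRT5, 0.353% for KRT17 and 0 for KRT13, KRT15 and KRT4. With 50-base windows it was 22% for KRT16, 23.8% for KRT14, 17.4% for KRT17, 3.99% for KRT5, 1% for KRT13, 0.328% for KRT15 and 0 for KRT4. For KRT16P2 the share was 26.3% with 100-base and 56.8% with 50-base windows, and for KRT16P6 it was 0.479% and 14.1%. The sources used here do not give the read length, so how far reads of KRT14, KRT16, KRT17 and these pseudogenes could be shared with copies is uncertain.

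Along the chromosomes, the genes that rose and those that fell lay in separate runs on chromosome 17. From KRT13 to KRT17 the annotation holds 10 genes, of which 7 were tested. KRT13, KRT15 and KRT19 rose within 27.3 kb, and KRT14 and KRT17 fell within 42.6 kb that also hold the uncalled KRT16. KRT9, between the runs, was not called, at a mean of 0.253 and 0.0741 CPM, and EIF1, the next tested gene beyond KRT17, had a log2 fold change of -0.07 and was not called. On chromosome 12, KRT6A and KRT5 fell within 33.5 kb, and KRT4 lay apart from them, nearer to KRT8 and KRT18. The antisense gene that overlaps KRT13 (ENSG00000229732) was listed at 0 in all 6 libraries. This order is a description and was not tested.

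**Figure D5:**
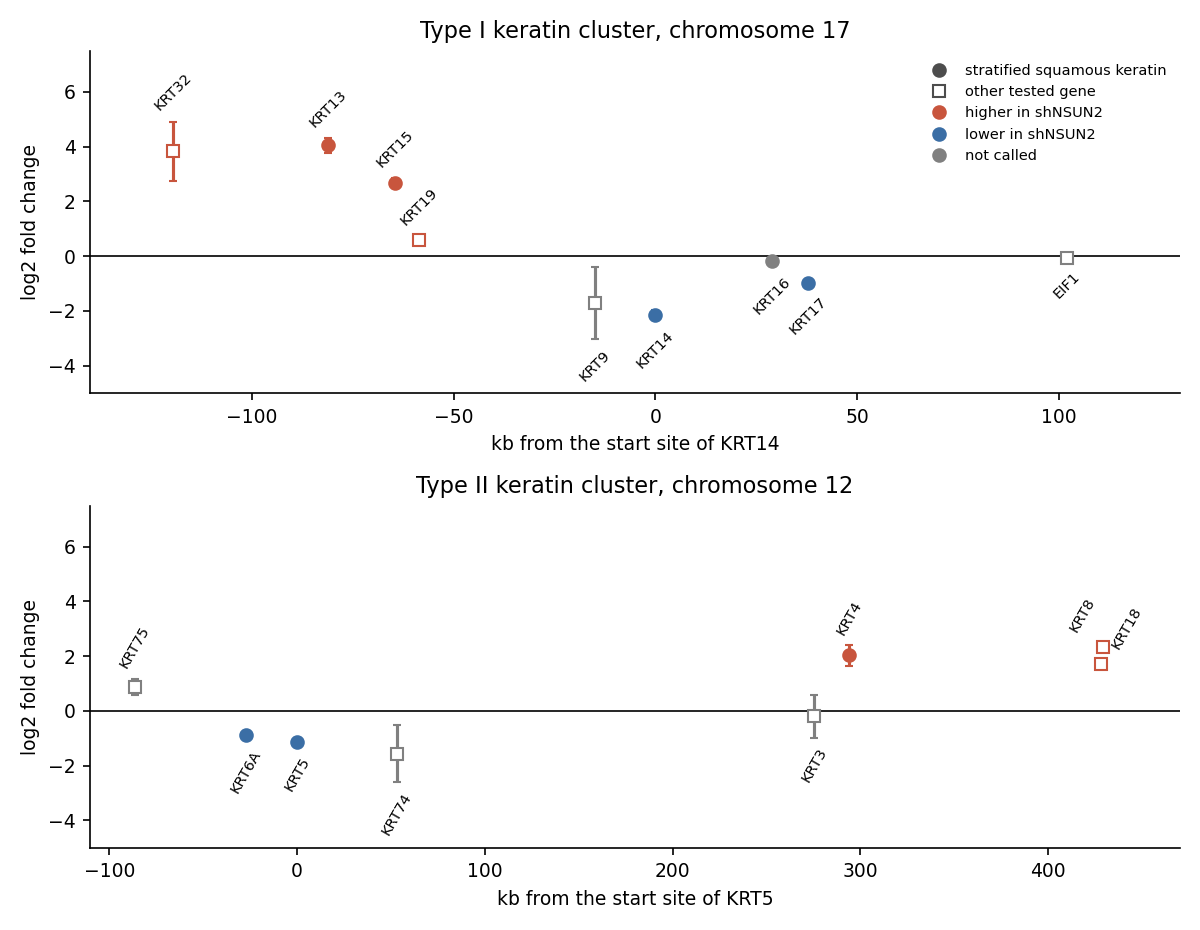
Log2 fold change of shNSUN2 over FaDu (points, with SE) of tested genes by distance in kb from the start site of KRT14 (chromosome 17) or KRT5 (chromosome 12), squamous keratins filled and other genes open. KRT13, KRT15 and KRT19 stand above 0 side by side and KRT14 and KRT17 below it, with EIF1 at -0.07.

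Transcripts of genes whose products anchor keratin filaments at desmosomes and hemidesmosomes were lower where they were called. Of 20 such genes, all tested, 7 were called lower, none higher and 13 were not called, with a median log2 fold change of -0.28, against 8.54% higher and 9.97% lower of all genes tested. DSG3, a desmosomal cadherin of basal and suprabasal cells, had 113, 118 and 126 CPM in FaDu and 46.7, 60.4 and 31.2 CPM in shNSUN2. COL17A1, a hemidesmosomal collagen, went from 340 ± 12.1 to 207 ± 17.8 CPM and DSC2, a desmocollin, from 39.1 ± 1.53 to 23.4 ± 5.25 CPM. The count of 7 was 2 without any 1 of the FaDu libraries or without shNSUN2 replicate 1, and without shNSUN2 replicate 3 there were 3 called higher.

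Among 20 genes of basal keratinocytes other than keratins, 18 were tested, 8 were called lower, 1 higher and 9 were not called (median -0.47), against 8.54% higher and 9.97% lower of all genes tested. ASS1, an enzyme of arginine synthesis, went from 224 ± 20 to 68.5 ± 12.4 CPM and CCND2, a cyclin of the early cell cycle, from 14.9 ± 2.67 to 3.02 ± 1.01 CPM. TSPAN7, a tetraspanin, went from 9.1 ± 0.821 to 3.29 ± 0.522 CPM. S100A2, a calcium-binding protein of basal cells, was the 1 that rose, at 408, 381 and 380 CPM in FaDu and 728, 787 and 1123 CPM in shNSUN2.

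Of 36 transcription factors known to act on squamous keratin genes or in keratinocytes, 35 were tested, 10 were called lower, 3 higher and 22 were not called (median -0.08), against 8.54% higher and 9.97% lower of all genes tested, so the share called higher was near that of all genes. STAT3, a factor of cytokine signalling, had 154, 151 and 158 CPM in FaDu and 50.6, 54.6 and 59.3 CPM in shNSUN2 (log2 fold change -1.49, SE 0.11). BNC1, a zinc finger protein of basal keratinocytes, had a log2 fold change of -1.81 (SE 0.15), and JUNB, an AP-1 subunit, of -1.02 (SE 0.13). ELF3, an epithelial ETS factor, rose from 254 ± 23.9 to 632 ± 71.8 CPM. The count of 10 was 6 without FaDu replicate 1 or 2 and 5 without FaDu replicate 3 or shNSUN2 replicate 1, and the count of 3 was 6 without shNSUN2 replicate 3.

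Genes of mucosal and suprabasal differentiation, the setting of KRT13 and KRT4, were called in both directions. Of 30, 18 were tested, 5 were called higher, 2 lower and 11 were not called (median 0.20), against 8.54% higher and 9.97% lower of all genes tested, so the share called lower was near that of all genes. SPRR1B, a cornified envelope precursor, went from 0.287 ± 0.0897 to 3.27 ± 1.14 CPM and SPRR1A from 0.0868 ± 0.0942 to 1.46 ± 0.508 CPM. SPRR2A was listed at 0 in all FaDu libraries and at 1.71, 0.892 and 1.88 CPM in shNSUN2. TGM1, the transglutaminase that cross-links the envelope, fell instead, from 29.5 ± 0.258 to 7.22 ± 2.06 CPM. The count of 5 was 3 without FaDu replicate 1 and 2 without FaDu replicate 2 or shNSUN2 replicate 1, and the count of 2 was 1 without any 1 of the FaDu libraries or shNSUN2 replicate 1.

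Genes of wounded and activated keratinocytes, the setting in which KRT6A, KRT16 and KRT17 are induced, were split. Of 32, 29 were tested, 9 were called higher, 9 lower and 11 were not called (median -0.09), against 8.54% higher and 9.97% lower of all genes tested. PI3, the protease inhibitor elafin, had 0.523, 0.605 and 0.414 CPM in FaDu and 14.3, 16.4 and 17.5 CPM in shNSUN2, and S100A9, a subunit of calprotectin, went from 2.1 ± 0.125 to 25.7 ± 8.58 CPM. IL20RB, a receptor chain for cytokines of the IL-20 family, fell from 26.7 ± 3.25 to 3.57 ± 0.862 CPM. SERPINB3, a squamous cell serpin, stood at 3.11, 3.85 and 3.97 CPM in FaDu and was listed at 0 in all shNSUN2 libraries. Without FaDu replicate 3, 5 of the list were called lower. The wound keratins thus fell or were not called, while of the other genes of the setting 9 rose and 9 fell.

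The genes whose profile over the 6 libraries was closest to that of KRT13, by the distance between centred log2 CPM, were VGLL1 (0.67), SPNS2 (0.75) and CDH5 (1.07). VGLL1 went from 0.772 ± 0.026 to 13.6 ± 1.61 CPM and SPNS2 from 0.998 ± 0.378 to 13.4 ± 2.37 CPM. The closest to KRT14 were TGM1 (0.21), MRC2 (0.21) and KLF13 (0.29). KLF13 went from 113 ± 2.59 to 28.3 ± 5.45 CPM and MRC2 from 58.9 ± 4.38 to 12.3 ± 2.82 CPM. Since the groups were far apart in both keratins, likeness of profile here is mostly likeness of the group difference.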

How the data were processed

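RNA sequencing of 6 libraries was used, 3 per group, grouped by the labels. The authors deposited 1 table of estimated counts per Ensembl gene (58825 identifiers), all of them whole and taken unchanged. Bowtie 0.12.2, HISAT2 2.0, StringTie 1.3.0 and the mouse build mm8 stand in the submitters' processing notes without a role. The human build was not given in the sources used here, nor were the annotation, read length and strand. A count of 4 was 3.25 to 3.81 times as frequent as the mean of 3 and 5, so low values come in steps and no counting interval is given.

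Symbols came from a gene name table (58472 matched) and GENCODE 29 (58552 matched), which also gave positions and lengths. The test was edgeR 4.0.16 under R 4.3.3 (glmQLFit and glmQLFTest, robust, TMM, filterByExpr with minimum count 10 and minimum total 15, group alone), with Benjamini-Hochberg adjustment over 19081 genes, two-sided, and a call at an adjusted p under 0.05. The SE is the log2 fold change divided by the square root of F. Alternatives used upper-quartile scaling, library totals, DESeq2 1.42.0, limma 3.58.1, no filter, an offset for GC content and length (5 spline degrees of freedom), the replicate number as a block, and each library left out. The procedure was tested on simulated data.

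The keratins and the gene lists were chosen with earlier results of these data known. The genes named are NSUN2, the 9 keratins, every called other keratin, in each list the 4 called genes of smallest adjusted p with at least 1 CPM, and the 3 genes with at least 5 CPM closest in profile (prior count 2) to the keratins that rose and fell most. The values of 1 gene that this rule names are not reported here, and it stays in the count of its list. The pseudogenes, the squamous markers, EIF1, KRT9, KRT6C and the marker genes at 0 were named after their values were seen. Across 19033 genes, the deviation of a library from the mean of its own group was compared with GC content. The Spearman rho was -0.323, -0.224 and 0.418 in shNSUN2 replicates 1 to 3 and 0.145, -0.189 and 0.05 in FaDu replicates 1 to 3.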

Additional observations from a re-analysis of the deposited data

How the results depend on the processing

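The 7 called keratins kept their direction and call, and KRT16 stayed without one, in 14 alternatives. Over the 6 fits that each leave out 1 library, 3 keratins were called higher and 4 lower, and NSUN2 ran from -2.15 to -1.88. Of 468 alternative values, 410 moved little and 58 moved. Only the log2 fold changes of the tested keratins and NSUN2 were classed by sign and threshold, and of these 0 reversed or crossed it. A count was classed as little moved even where it went from 1629 to 2352 genes higher, with DESeq2. Counts of calls did move. Same-numbered libraries did not deviate together (correlations -0.036, 0.024 and 0.007), so the numbers were not taken as pairs. With the replicate block, 969 genes were called higher and 1401 lower, with 3 genes of mucosal differentiation higher and 1 lower and 3 pseudogenes higher, and with the block and the offset for GC content and length 1 mucosal gene was lower. DESeq2 called 1 anchor gene, 5 transcription factors, 2 basal genes and 8 pseudogenes higher, and the offset alone 1 anchor gene and 2 basal genes. The cause was not tested.

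Leaving out 1 library gave 478 to 2090 genes higher and 861 to 2181 lower over all genes. It gave 0 to 3 anchor genes higher and 2 to 8 lower, 2 to 6 transcription factors higher and 5 to 10 lower, 2 to 5 mucosal genes higher and 1 to 2 lower, 5 to 10 wound genes lower, 4 to 6 other keratins higher and 0 to 1 lower, and 3 to 5 pseudogenes higher. These fits have fewer samples.

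By the longest transcript, KRT14 held 4.69% of the length-scaled sum in FaDu and 2.03% in shNSUN2, KRT15 4.44% in shNSUN2, KRT6A 0.432% and 0.462%, and KRT16 0.247% in FaDu. By coding length, KRT14 held 3.88% and 1.57%, KRT15 0.962% and 11.2%, KRT6A 0.416% and 0.415%, KRT16 0.202% and 0.327%, and KRT13 2.04% in shNSUN2. Low counts limit KRT6B, KRT9 and KRT32.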
